A study of Mus musculus with 4 samples.

Results

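The rows examined here are the gene segments of the mouse T cell receptor alpha and delta locus, a single stretch of chromosome 14 that encodes both chains. They were chosen by name alone: Ensembl identifiers in the deposited table were turned into gene symbols, and every row whose symbol begins with Trav, Traj, Trac, Trdv, Trdd, Trdj or Trdc was taken. This gave 200 of the 25630 rows: 134 variable (V) rows, 2 diversity (D) rows, 62 joining (J) rows and the 2 constant rows Trac and Trdc. The annotation types all 200 as T cell receptor segments of chromosome 14, and 30 of them as pseudogenes. RNA was sequenced from BEKO, a mouse cell line of thymic lymphoma cells with the genotype given as WT in every library, in 2 libraries at high density and 2 at low density. How many cells were plated, in what medium and for how long is not in the labels. No source says whether the libraries of a density were grown apart, so each p-value reflects only the scatter among these libraries, which may be technical, and all libraries come from 1 line.

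A T cell receptor chain is assembled in the thymus by cutting and joining DNA. A V segment is joined to a J segment for the alpha chain, with a D segment between them for the delta chain, and the RNA is then spliced to the constant exons. The delta segments lie inside the alpha locus, between the V array and the Traj array, so that V to Traj joining removes the delta segments of that chromosome. V segments with dv in their symbol are used with either chain. An alpha chain pairs with a beta chain, and a delta chain with a gamma chain. Rows of the locus are therefore not independent: they can share a transcript, and near-identical V copies can share reads.

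The locus was chosen with its difference between densities already known, so that difference is given below as a description, with no p-value for any locus row. Levels are in TPM (a level per length, scaled to a common total of 1000000 per library), means carry the SD over 2 libraries, and fold values are ratios of mean TPM.

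The sequences that follow are the J segments with the highest mean level, shown because they carry most of the J signal and because their length, 51 to 66 bases here, sets how coarse their values are. Trdj rows are delta J segments and Traj rows alpha J segments. They are copied from the GENCODE M21 transcript set (GRCm38) and read 5′ to 3′ on the coding strand. Capitals mark the letters TTNGGNNNNGG, which encode the phenylalanine-glycine turn conserved in J segments.
Trdj1: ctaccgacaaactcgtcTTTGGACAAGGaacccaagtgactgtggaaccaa
Trdj2: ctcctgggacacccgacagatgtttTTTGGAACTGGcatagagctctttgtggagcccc
Traj6: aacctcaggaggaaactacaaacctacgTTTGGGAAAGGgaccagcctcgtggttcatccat
Traj2: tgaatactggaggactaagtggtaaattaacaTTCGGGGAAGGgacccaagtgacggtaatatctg
Traj3: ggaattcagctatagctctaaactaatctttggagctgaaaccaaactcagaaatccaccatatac
Traj22: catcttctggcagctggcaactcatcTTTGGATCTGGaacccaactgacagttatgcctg
Traj3 holds no match to these letters, although its level was among the highest. The motif was found on the coding strand of 48 of the 62 J rows (77.4%) and on the other strand of 0. Among 60-base windows cut from the V transcripts it was found in 3 of 756 (0.397%). It occurred in 46 of 53 J gene models and in 2 of 9 J pseudogene models. Of the 32 J rows that averaged 1 TPM or more, 25 held it, against 23 of the 30 J rows below that level.

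The highest V rows are near-identical copies from the duplicated part of the V array. Trav16d-dv11 and Trav16n are identical in 96.6% of 356 aligned columns. The lines show how little separates them: each is a 120-base stretch of the GENCODE M21 transcript (aligned columns 55 to 174), chosen as the gap-free stretch with the most differences, with capitals at the 2 columns that differ.
Trav16d-dv11: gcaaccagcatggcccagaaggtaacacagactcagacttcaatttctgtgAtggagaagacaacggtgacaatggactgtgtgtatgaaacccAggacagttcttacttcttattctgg
Trav16n: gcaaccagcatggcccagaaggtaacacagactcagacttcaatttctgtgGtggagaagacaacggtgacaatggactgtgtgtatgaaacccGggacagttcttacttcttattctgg
Trav16, the third member of the family, is identical to Trav16n in 97.7% and to Trav16d-dv11 in 96.6% of aligned columns. Values of these 3 rows are therefore uncertain one by one, and their sum is given beside them.

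The TPM values of the locus turned out to be whole numbers of reads. Multiplied by the exon length of the row in GENCODE M21, all 146 values above 0 among the locus rows were whole multiples of 1 constant per library, within a tolerance of 0.001. That multiple is given below as reads (or read pairs), and it shows the depth behind each value. For a J row of median length 61 bases, 1 read is worth more than 1 TPM, so a J value under 5 TPM rests on a handful of reads. The locus as a whole received 7656 and 6147 reads in the high density libraries, against 1341 and 1285 in the low density libraries. Per length, its summed level was 905 and 685 TPM at high density, against 131 and 118 TPM at low density.

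All 10 T cell markers examined were present in every library, with summed levels of 8406 to 8703 TPM at high and 8511 to 9182 TPM at low density. Among markers of other cell types, those of B cells summed to at most 3.00 TPM and those of epithelial cells to at most 1.55 TPM, with Cd79b, Ms4a1, Epcam and Krt18 listed at 0. Erythroid markers summed to 3.56 to 7.05 TPM with Hba-a1 and Hbb-b1 at 0. Myeloid markers summed to 16.1 and 12.1 TPM at high density, against 9.09 and 6.62 TPM at low density, with Lyz2, Cd14 and Csf3r at 0 and 6.62 to 16.1 TPM of it from the integrin gene Itgam. Fibroblast markers other than Thy1, which T cells also express, summed to 46.7 TPM in low density library 1 and to 0.263 to 0.536 TPM in the other libraries, with Dcn at 0. Without low density library 1 the ratio of high to low density was 7.49 for Trac and 5.56 for Trdc, against 7.22 and 5.23 with it. The part of the myeloid marker Itgam, which moved with density, in the values that follow was not tested.

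The constant exons are carried by every finished alpha or delta transcript. Trac, the alpha constant region, had 84.8 and 115.6 TPM at high density, against 14.4 and 13.4 TPM at low density, or 1012 and 1312 reads against 171 and 173. Trdc, the delta constant region, had 101 and 77.1 TPM at high density, against 18.1 and 16.0 TPM at low density, or 5008 and 3616 reads against 890 and 858. Trac averaged 100.2 ± 21.8 TPM at high density and 13.9 ± 0.725 TPM at low density, and Trdc 89.3 ± 17.3 TPM at high density and 17.1 ± 1.47 TPM at low density (SD, n = 2 each). For both genes the groups did not overlap, and the gap between them was wider than the spread within either. Of all rows tested, 34.7% lay higher at high density without overlap, so nothing is read from such separation here or below. In bulk RNA, fewer cells that carry a transcript and less of it per cell cannot be told apart. The difference on the log2(TPM + 1) scale was 2.75 ± 0.27 (SE) for Trac and 2.31 ± 0.27 for Trdc.

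Both constant regions were thus at similar levels per length. Trdc took more reads than Trac in every library, over an exon model of 3865 bases, so the similarity depends on the exon lengths used. The ratio of Trdc to Trac within a library, which does not depend on how the library was scaled, was 1.20 and 0.667 at high density, against 1.26 and 1.20 at low density. High density library 2 stood apart, with more Trac than Trdc, while the other 3 libraries lay within 1.20 to 1.26. The log2 difference of this ratio was −0.46 over all libraries and −0.038 without high density library 2, so it rests on that library. The chain partners stood at other levels. The gamma constant rows Tcrg-C1, Tcrg-C2 and Tcrg-C4 had 363 to 1363 TPM at high density, against 325 to 893 TPM at low density, and Tcrg-C3 had 121 and 59.3 TPM, against 58.6 and 46.4 TPM. The beta constant rows Trbc1 and Trbc2 were listed at 0 in every library. Sequence shared between these 2 rows was not examined, and how reads that match several rows were placed is not stated. Nothing is read from these zeros.

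**Figure D1:**
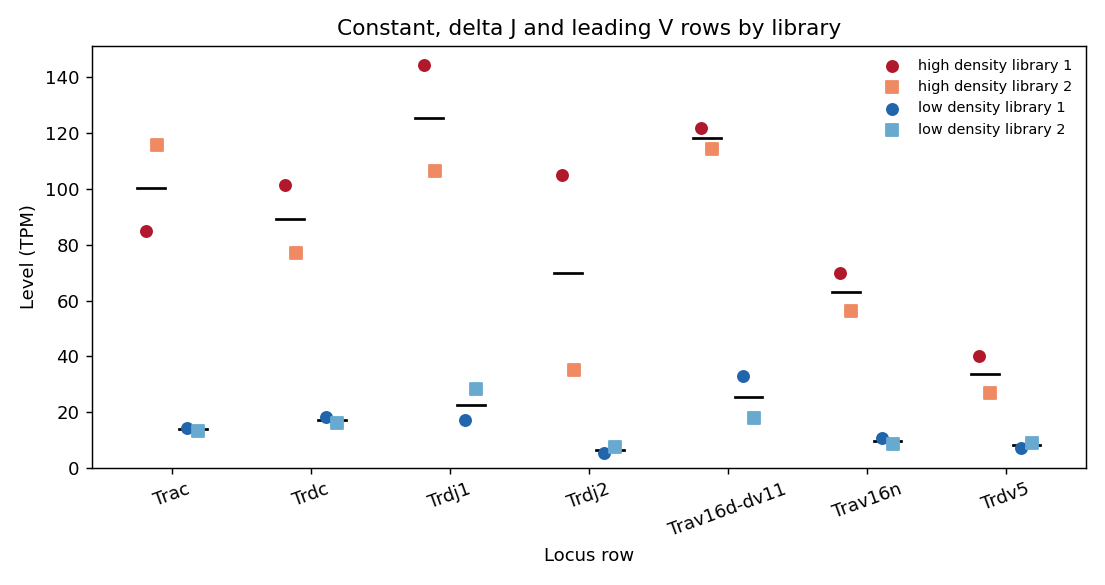
Level in TPM (vertical axis, from 0) of the constant, delta J and leading V rows (horizontal axis), with 1 point per library, high density left of low density, and a bar at the group mean. In each of the 7 rows both high density points lie above both low density points, as in 34.7% of all rows tested. The high density points are farthest apart for Trdj2, at 105 and 34.9 TPM.

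The delta J rows, which are joined to a V and D segment in a delta chain, were the highest J rows of the locus by mean level. Trdj1 had 144 and 107 TPM at high density, against 17.0 and 28.3 TPM at low density, resting on 94 and 66 reads against 11 and 20. Trdj2 had 105 and 34.9 TPM at high density, against 5.34 and 7.35 TPM at low density, on 79 and 25 reads against 4 and 6. Groups did not overlap for either row. Trdj1 exceeded Trdj2 in each library, 1.38-fold and 3.05-fold at high density, against 3.18-fold and 3.86-fold at low density. The mean level of Trdj2 was 11.0-fold higher at high density over all libraries, and its size depends on which high density library is used: the ratio was 5.50 when library 1 of that group was left out and 16.5 when library 2 was. For Trdj1 the ratio was 5.54, with a range of 4.43 to 7.39 when 1 library was left out. The D rows Trdd1 and Trdd2, the shortest of the locus at 11 and 16 bases, were listed at 0 in all 4 libraries. For them 3 reads would be worth 19.7 to 22.5 TPM and 13.6 to 15.4 TPM, so nothing is read from these zeros.

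Among the V rows, 20 of 134 were above 0 in at least 1 library, and 114 (85.1%) were at 0 in all 4. Trav16d-dv11, usable with either chain, was the highest V row in each library, with 122 and 114 TPM at high density, against 33.0 and 17.8 TPM at low density. It took 550 and 490 reads at high density, against 148 and 87 at low density. Trav16n had 70.0 and 56.2 TPM at high density, against 10.6 and 8.71 TPM at low density. Trav16 had 4.48 and 2.55 TPM at high density, against 0 and 0.172 TPM at low density, the last value being 1 read. Of the 50-base windows of Trav16d-dv11, Trav16n and Trav16, 62.8%, 50.5% and 48.2% occur in another locus row, so their reads can be told apart only in part. Summed over the 3 rows, the family had 197 and 173 TPM at high density, against 43.6 and 26.7 TPM at low density. The ratio of the mean sums was 5.26.

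Trdv5 is a delta V segment that lies in reverse orientation beyond Trdc, so it joins by inversion rather than deletion. It had 40.2 and 26.9 TPM at high density, against 7.19 and 9.08 TPM at low density, with 225 and 143 reads against 40 and 55, and the groups did not overlap. It shares no 50-base window with another row of the locus, so its value does not depend on how reads shared within the locus were placed. The ratio of Trdv5 to Trdc was 0.396 and 0.349 at high density, against 0.397 and 0.566 at low density. High density library 1 and low density library 1 were nearly equal in this ratio, and high density lay lower by less than the spread within the low density group. The other 5 Trdv rows, Trdv1, Trdv2-1, Trdv2-2, Trdv3 and Trdv4, were at 0 in all 4 libraries.

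The remaining V rows were far lower. Trav14d-3-dv8 had 8.42 and 6.69 TPM at high density, against 0.345 and 1.43 TPM at low density, on 49 and 37 reads against 2 and 9, and its ratio of means, 8.52, was 5.29 or 21.9 when low density library 1 or 2 was left out. Trav14-1 had 5.10 and 5.16 TPM at high density, against 0 and 1.63 TPM at low density. Trav3-4 had 3.93 and 2.34 TPM at high density, on 23 and 13 reads, and 0 in both low density libraries. Its high density mean was 6.34-fold above a floor of 3 reads per library, which allows for counting error in the zeros only. Trav13-1 had 3.08 and 0.249 TPM at high density, against 0 in both low density libraries, and lay below the filter for testing. The V rows other than Trav16d-dv11, Trav16n and Trdv5 together took 163 and 122 reads at high density, against 3 and 25 reads at low density.

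The title of the series concerns receptors with the delta variable segment 7. The row whose symbol carries that number, Trav13-4-dv7, is named for that reason, and was listed at 0 in all 4 libraries. At this depth a count of 0 allows up to 3 reads, or 0.610 and 0.642 TPM at high density, against 0.613 and 0.563 TPM at low density (counting error only). Of its 50-base windows, 72.9% also occur in another locus row, so this limit does not cover reads that were placed elsewhere or dropped. The row sharing most is Trav13d-4, with 37.5% of the windows. Trav13d-4 had 0.473 and 0.747 TPM at high density, against 0 in both low density libraries. The 12 rows of the Trav13 family together had 24 and 7 reads at high density, against 0 and 3 at low density.

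**Figure D2:**
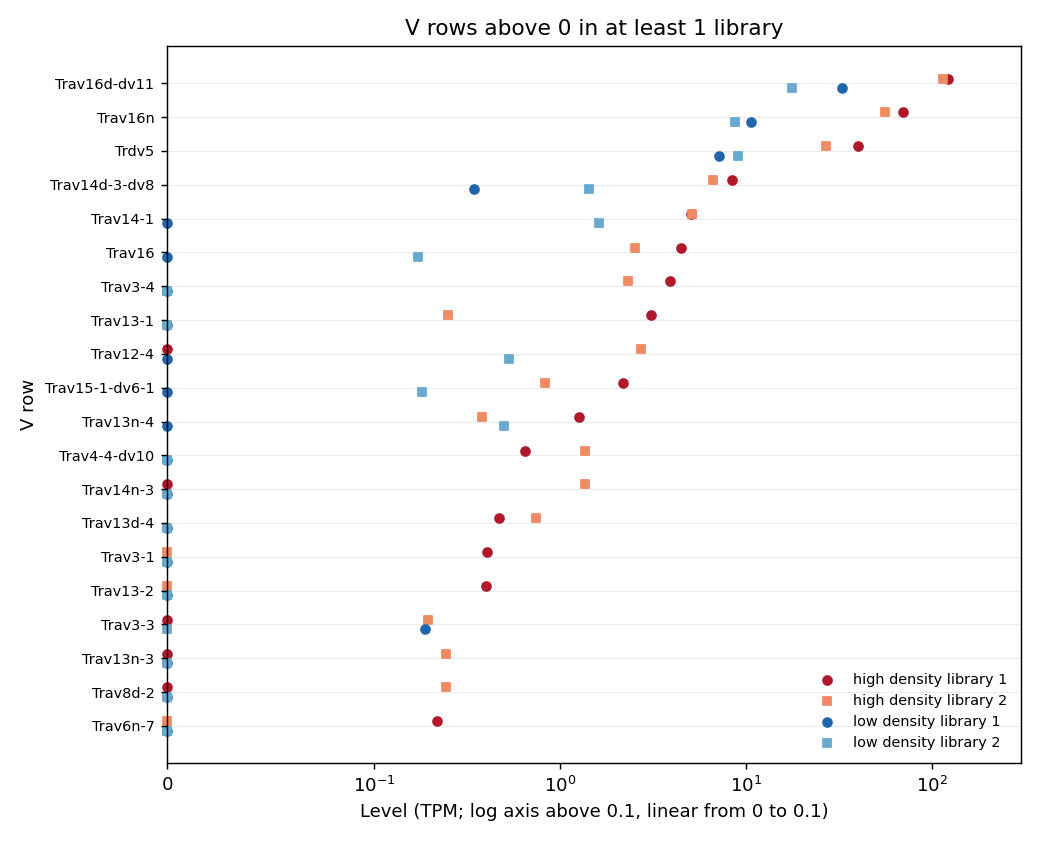
Level in TPM (horizontal axis, logarithmic above 0.1 and linear from 0 to 0.1) of the 20 V rows above 0 in at least 1 library (vertical axis, highest mean at the top), with 1 point per library and high density drawn above low density within a row. Trav16d-dv11, Trav16n and Trdv5 lead, and the 114 V rows at 0 in all 4 libraries are not drawn.

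Position and sequence describe the V rows listed at 0 further. Taken in the order of the GRCm38 annotation, a division made after the values were seen, the first 43 rows, from Trav1 to Trav8d-2, held 2 rows above 0 with 3 reads in all. The next 78, from Trav16d-dv11 to Trav12-4, held 17. The last 14 rows before the delta J segments, from Trav17 to Trdd2 and with the 2 D rows among them, were all at 0 in all 4 libraries. Much of a typical V row is not unique: the median share of 50-base windows found in another locus row was 58.2% over the V rows, 70.0% for the 114 at 0 and 39.4% for the 20 above 0. Windows were at least 90% shared in 44 of the 114 rows at 0 and in 1 of the 20 above 0, while 13 of the 114 shared none. How the authors placed reads that match several rows is not stated in the labels, and the part of shared sequence in these zeros was not tested.

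The 60 Traj rows, the alpha J segments, were low and scattered one by one but formed a pattern along the array. Of the 60, 33 and 32 were above 0 in the high density libraries, against 12 and 7 in the low density libraries. They summed to 206 and 128 TPM at high density, against 25.0 and 12.8 TPM at low density, resting on 154 and 90 reads against 18 and 11. In 17 rows both high density libraries were above 0 and both low density libraries at 0, and the opposite held for 0 rows. In all, 12 rows were above 0 in 1 library alone. The share of all rows with the first pattern was not counted. With 18 and 11 Traj reads at low density, most Traj rows had to be at 0 there, so nothing is read from these counts. Over the whole table, 13605 and 13758 rows were above 0 at high density, against 15553 and 13892 at low density. No single Traj row dominated: the row with the most reads took 9.74% and 11.1% of Traj reads at high density. Other rows led in the low density libraries: Traj47 took 22.2% in library 1 and Traj55 27.3% in library 2, which is 4 and 3 reads.

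The array is numbered so that Traj61 is farthest from Trac and Traj1 next to it. Divided into 3 blocks of 20 rows, the block next to Trac (Traj21 to Traj1) summed to 152 and 56.9 TPM at high density, against 13.3 and 3.39 TPM at low density. The middle block (Traj41 to Traj22) summed to 43.4 and 63.3 TPM at high density, against 5.03 and 5.95 TPM at low density. The far block (Traj61 to Traj42) summed to 10.8 and 8.01 TPM at high density, against 6.62 and 3.44 TPM at low density. The high density libraries lay above the low density libraries in all 3 blocks, by a ratio of mean sums of 12.5, 9.72 and 1.87 in the order given. The Trac-side ratio depends on single libraries: it was 6.80 without library 1 of the high density group, and 30.8 or 7.83 when low density library 1 or 2 was left out. Leaving out 1 library gave 7.91 to 11.5 for the middle block and 1.42 to 2.73 for the far block, so the order of the 2 blocks nearer to Trac is not fixed. The high density libraries differed from each other in which block was higher, with the Trac-side block ahead in library 1 and the middle block slightly ahead in library 2. The far block rests on 9 and 6 reads at high density, against 5 and 3 at low density.

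**Figure D3:**
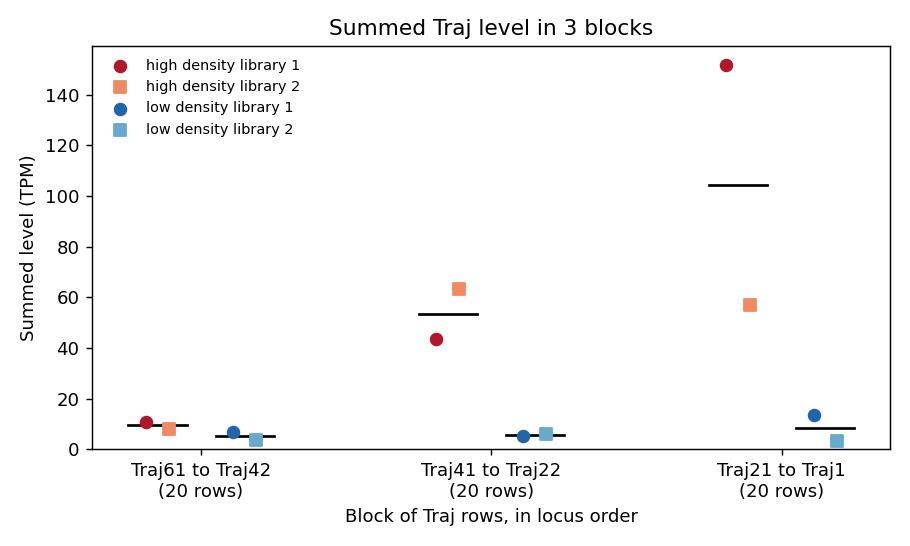
Summed level in TPM (vertical axis, from 0) of 3 blocks of 20 Traj rows in locus order (horizontal axis), with 1 point per library, high density left of low density, and a bar at the group mean. The high density points lie above the low density points in each block, and the gap between group means is narrowest for the far block.

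For a row by row view the array was divided at Traj32, a boundary read from the values. From Traj32 to Traj1, 29 and 27 of 31 rows were above 0 in the high density libraries, against 10 and 5 in the low density libraries. From Traj61 to Traj33, 4 and 5 of 29 rows were above 0 at high density, against 2 and 2 at low density. The reads were 145 and 83 on the Trac side of this boundary at high density, against 13 and 7 at low density. Beyond it they were 9 and 7 at high density, against 5 and 4 at low density. All 18 Traj rows at 0 in all 4 libraries lay beyond it. These counts follow in part from the choice of boundary, and at low density from the few reads, so nothing is read from them.

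**Figure D4:**
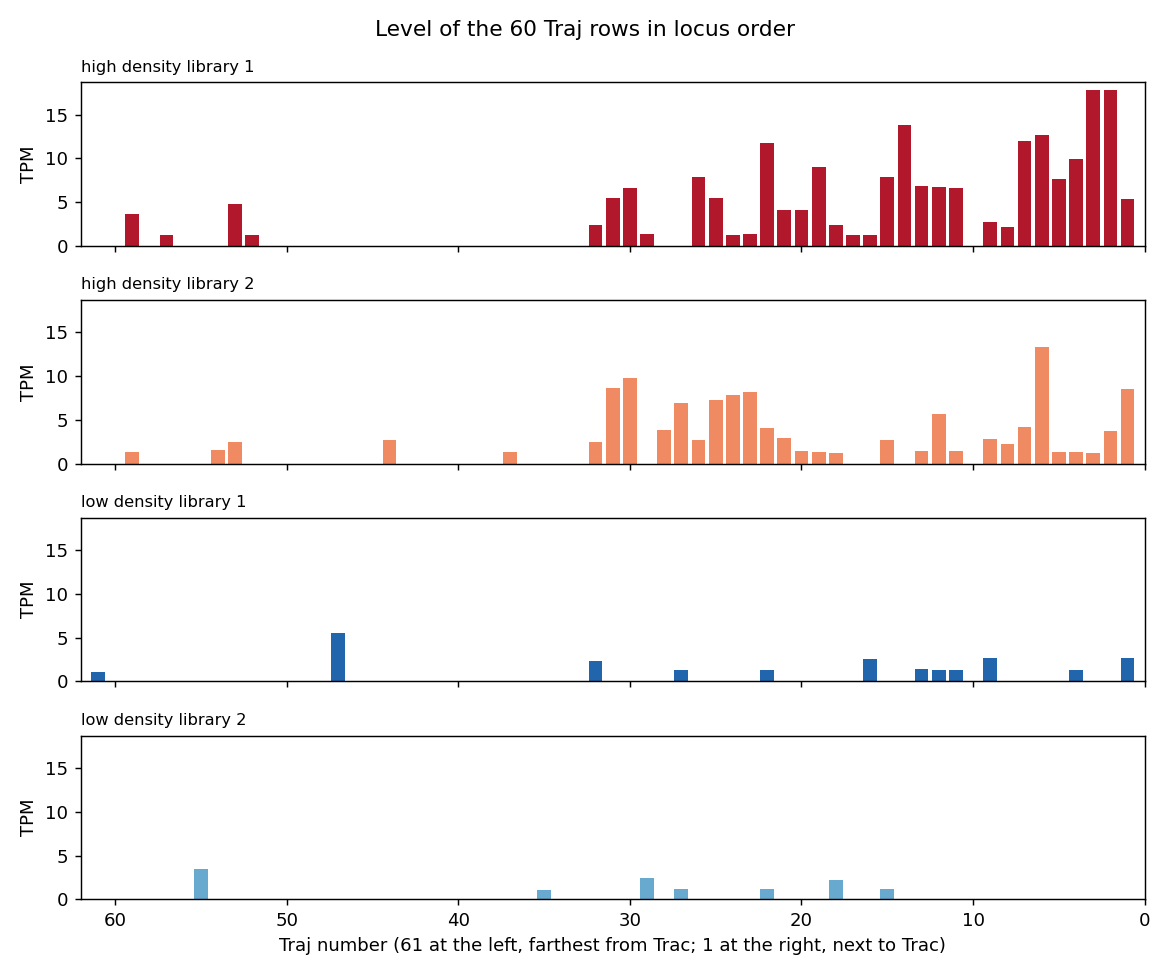
Level in TPM (vertical axes, same scale) of the 60 Traj rows by their number (horizontal axis, Traj61 at the left and Traj1, next to Trac, at the right), with 1 panel per library and the high density libraries first from the top. In the high density panels most bars lie between Traj32 and Traj1. In the low density panels no bar exceeds 5.52 TPM.

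Traj6 was the only Traj row with 10 reads in each high density library, at 12.6 and 13.3 TPM, against 0 in both low density libraries. Its high density mean was 3.55-fold above a floor of 3 reads per library. Traj30 had 6.64 and 9.78 TPM at high density (5 and 7 reads), and Traj31 had 5.50 and 8.67 TPM (4 and 6 reads). Both were also at 0 in both low density libraries, and their high density means were 2.14-fold and 1.78-fold above the same floor. That floor allows for counting error in the zeros only, so on so few high density reads these ratios are not firm lower limits. Traj22 was the only Traj row above 0 in every library, with 11.7 and 4.12 TPM at high density, against 1.31 and 1.20 TPM at low density. Several rows near Trac separated the high density libraries. Traj2 had 17.8 and 3.75 TPM at high density, against 0 in both low density libraries. Traj3 had 17.8 and 1.25 TPM at high density and was also at 0 at low density. Traj14 had 13.8 TPM in high density library 1 and 0 in the other 3 libraries. A few rows went the other way on few reads: Traj47 had 5.52 TPM (4 reads) in low density library 1 alone, and Traj55 had 3.44 TPM (3 reads) in low density library 2 alone.

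Of the 200 locus rows, 41 averaged 1 TPM or more across all 4 libraries and entered the fit across all rows (limma on log2(TPM + 1), adjusted over 10936 rows). The fit called 30 of them higher and 0 lower at high density: 21 of 32 J rows, all 7 V rows that entered and both constant rows. Over all rows tested 6.68% were called, 4.57% higher and 2.11% lower, and the median log2 difference was 0.12. Nothing is read from this count, since the locus was proposed with this contrast in view, rows of the locus share transcripts, and a row at 0 at low density entered only through its high density level. Fitted log2 differences ran from −1.35 for Traj47 to 3.80 for Traj6. High density lay above low density without overlap in 39 of the 200 rows and below it in 0. Over all rows of the table the shares were 17.1% and 11.6%, so the count above is near the share of all rows. Of the 200 rows, 134 were at 0 in all 4 libraries and could not separate the groups. Among the rows tested the shares were 34.7% and 20%, a base for single rows that entered the fit and not for the 200. Nothing is read from this count either. With libraries centred on their medians, or after quantile normalisation, the fit called 9 locus rows higher and 0 lower. Centring shifted every log2 difference by −0.19, and over all rows it gave 160 higher and 154 lower calls, against 500 and 231 without it.

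Genes that work with the locus were listed by role, with earlier results of these data known. Among 11 partner chains and recombination genes, 1 was called higher and 2 lower, with a median log2 difference of 0.03 against the 0.12 of all rows tested. The shares called over all rows tested were 4.57% higher and 2.11% lower, and nothing is read from so small a count. The CD3 chains, without which no receptor reaches the surface, were not called. Cd3e had 434 and 324 TPM at high density, against 473 and 458 TPM at low density (log2 difference −0.31 ± 0.23 SE, limma adjusted p = 0.456). Cd3g had 1850 and 1515 TPM at high density, against 1681 and 1599 TPM at low density (0.03 ± 0.22, limma adjusted p = 0.953). Ptcra, the surrogate alpha chain that pairs with beta before alpha is made, had 791 and 766 TPM at high density, against 1102 and 971 TPM at low density (−0.41 ± 0.22, limma adjusted p = 0.283). Rag1, a recombinase subunit that cuts V, D and J segments, fell to 185 and 181 TPM at high density, against 609 and 480 TPM at low density (log2 difference −1.56 ± 0.23, limma adjusted p = 0.00283). Rag2, the other recombinase subunit, fell to 16.0 and 12.9 TPM at high density, against 47.7 and 40.6 TPM at low density (−1.55 ± 0.27, limma adjusted p = 0.00702). The coreceptor chain Cd8b1 rose to 81.0 and 105.4 TPM at high density, against 43.0 and 36.6 TPM at low density (1.20 ± 0.26, limma adjusted p = 0.018). Its partner Cd8a had 135.5 and 188 TPM at high density, against 89.3 and 80.9 TPM at low density (0.90 ± 0.25, limma adjusted p = 0.0532). Leaving out low density library 1 or 2 ended 2 of these calls: the limma adjusted p became 0.12 or 0.38 for Cd8b1, and 0.254 or 0.148 for Rag2.

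Of 19 transcription factors and architectural proteins listed as regulators of the locus, 17 entered the fit, and 2 were called higher and 0 lower. The shares over all rows tested were 4.57% and 2.11%, and nothing is read from this small count. The median log2 difference was 0.37, against 0.12 over all rows tested. Gata3, a zinc finger factor of T cell development, rose to 264 and 138 TPM at high density, against 72.7 and 58.4 TPM at low density (log2 difference 1.54 ± 0.31 SE, limma adjusted p = 0.013). Ikzf1, the zinc finger protein Ikaros, rose to 345 and 391 TPM at high density, against 220 and 187 TPM at low density (0.86 ± 0.23, limma adjusted p = 0.0462). Stat5b, a cytokine signal transducer, and Id3, an inhibitor of E proteins, were the largest of the rest, with log2 differences of 0.92 ± 0.26 and 0.77 ± 0.26 and limma adjusted p of 0.0573 and 0.0984. Leaving out low density library 2 ended both calls, with a limma adjusted p of 0.106 for Gata3 and 0.693 for Ikzf1, and leaving out low density library 1 ended that of Ikzf1 (0.251). With libraries centred on their medians limma called 0 of the 17 (adjusted p 0.113 for Gata3 and 0.0934 for Ikzf1). At an unadjusted p under 0.05 there were 6, of them 4 higher and 2 lower.

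Of 20 genes listed around the locus on chromosome 14, 12 entered the fit, and 2 were called higher and 0 lower. The shares over all rows tested were 4.57% and 2.11%, and nothing is read from this small count. The median log2 difference was 0.07, against 0.12 over all rows tested. Dad1 and Abhd4, picked out as the neighbours on the Trac side after their values were seen, were not called. Dad1, a subunit of the oligosaccharyltransferase, had 40.6 and 55.4 TPM at high density, against 51.9 and 59.2 TPM at low density (−0.22 ± 0.26, limma adjusted p = 0.659). Abhd4 stayed under 1 TPM in every library and was not fitted. Ndrg2 rose to 37.2 and 14.1 TPM at high density, against 3.65 and 2.06 TPM at low density (2.67 ± 0.43, limma adjusted p = 0.00446, or 0.0728 with libraries centred on their medians). Its log2 difference was 2.00 when high density library 1 was left out and 3.34 when high density library 2 was, with limma adjusted p of 0.00335 and 0.000312. Lrp10, a receptor of the low density lipoprotein receptor family, rose to 143 and 142 TPM at high density, against 78.2 and 72.9 TPM at low density (0.91 ± 0.23, limma adjusted p = 0.0388). Its limma adjusted p was 0.083 after centring, and 0.314 or 0.591 when low density library 1 or 2 was left out. Rab2b and Oxa1l, the next by size, had log2 differences of 0.76 ± 0.28 and 0.36 ± 0.23, with limma adjusted p of 0.131 and 0.38.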

How the data were processed

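The authors deposited 1 table of TPM values (25630 rows, 4 libraries, each summing to 1000000). Strand-specific libraries were made by a provider, per the labels' protocols. The submitters' processing notes name the build mm9 and DESeq2 1.2.10 without a role; the aligner, the counter and its rule for reads that match several rows are not stated in those sources. All 699 Ensembl identifiers, with their versions, matched GENCODE M21 (GRCm38). That set gave symbols, types, exon lengths, order and sequences. As the notes name another build, no coordinates are printed.

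TPM times exon length, divided by its lowest value above 0 in a library, gave reads per row. Exact permutation of 2 against 2 libraries cannot reach a low p, so rows averaging 1 TPM or more were fitted with limma 3.58.1 in R 4.3.3 on log2(TPM + 1), with a group term and trend, adjusted by Benjamini-Hochberg over all rows and called under 0.05. The fit had 2 residual degrees of freedom, and moderation added 9.53. Such log2 differences understate changes of low rows. Named were constant rows, leading V and J rows, other locus rows averaging 1 TPM or more, and called or largest genes per list. The locus and all lists were chosen with earlier results of these data known. Alignments used Biopython 1.88.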

Additional observations from a re-analysis of the deposited data

How the results depend on the processing

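Over all rows the calls numbered 731. They were 0 with no filter (limma; at an unadjusted p under 0.05 there were 2565, of them 25 locus rows and 4, 6 and 6 genes of the lists below), 314 (160 higher) with libraries centred on their medians and 360 (216 higher) after quantile normalisation, and ranged from 233 to 3270 when 1 library was left out. The 30 calls on locus rows became 0 with no filter, and 9 of 41 both with median centring and after quantile normalisation. With a filter of mean 5 TPM only 9 locus rows were fitted, and all 9 were called. The calls ranged from 27 to 36 when 1 library was left out. The list of partner chains and recombination genes (3 calls) gave 0 with no filter and 1 to 5 with 1 library left out. The list of factors acting on the locus (2 calls) gave 0 with no filter, with centring and after quantile normalisation, 1 without the trend, and 0 to 7 with 1 library left out. The list of genes around the locus (2 calls) gave 0 with no filter, with centring and after quantile normalisation, 1 without the trend, and 1 to 4 with 1 library left out. The log2 ratio of summed TPM was 2.41 for V, 2.92 for J and 2.61 for constant rows. For constant rows it was 2.43 after rescaling to library medians and 2.39 without the higher row. It ranged from 2.49 to 3.25 for J rows when 1 library was left out. Traj27 (log2 difference 0.31) was −0.71 with a pseudocount of 0.1 and ranged from −1.19 to 1.81 with 1 library left out, and Traj18 (0.62) from −0.21 to 1.46; the cause was not tested. Replicate numbers are shared by the groups, and deviations correlated at only 0.042 over 10936 rows, so the main fit did not pair the libraries. This correlation cannot show whether libraries of the same number were grown or prepared together. With the replicate block the calls were 937 over all rows and 37 on locus rows (36 higher). Where leaving out a library left 1 in a group, that library is assumed to vary like the other group. Depth limits J rows: most rest on under 10 reads per library.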
